A study of Homo sapiens with 12 samples.

Results

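Transcripts of 4 aldo-keto reductases, AKR1B10, AKR1B15, AKR1C1 and AKR1C2, were followed across 6 groups of HepaRG libraries. They were the rows of the deposited expression table whose gene symbol equals one of these names, which gave 4 of 15822 loci, and all 4 were among the 15792 loci tested. HepaRG is a human hepatoma cell line that, once differentiated, resembles hepatocytes mixed with biliary-like cells. The groups were wild type (WT) cells and hCAR-KO cells (written KO), in which the gene of the human constitutive androstane receptor (CAR) was knocked out, each given the solvent DMSO, phenobarbital (PB) or CITCO, with 2 libraries in each group. NR1I3 encodes CAR, a nuclear receptor that switches on drug metabolism genes in liver. Phenobarbital activates it indirectly and also activates the pregnane X receptor (PXR), while CITCO is a synthetic CAR agonist. The sources used here give no dose, exposure time or method of disrupting NR1I3, and do not say whether the KO cells are a single clone. Nothing in the labels ties duplicates to separate cultures. All p-values thus rest on the spread of these 12 libraries alone, and that spread could be technical.

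Aldo-keto reductases use NADPH to reduce aldehydes and ketones to alcohols, and so act on drugs, steroids, sugars and the aldehydes left by lipid peroxidation. AKR1B10 reduces retinaldehyde and long-chain aldehydes and is known from liver and lung tumours, and AKR1B15 is its closest relative. AKR1C1 inactivates progesterone, and AKR1C2 inactivates dihydrotestosterone and binds bile acids. Several of these genes are textbook targets of NRF2, the transcription factor of the antioxidant response.

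The members form 2 pairs of neighbouring genes. On GRCh38 (GENCODE 29 annotation), AKR1B10 lies at chr7:134527592-134541408 and AKR1B15 at chr7:134549136-134579875, both on the plus strand. AKR1C1 lies at chr10:4963253-4983283 on the plus strand and AKR1C2 at chr10:4987400-5004023 on the minus strand. The coding sequences of AKR1C1 and AKR1C2 were identical at 950 of 969 bases (98.0%), with a longest identical run of 186 bases. Those of AKR1B10 and AKR1B15 were identical over 85.1% of 1032 aligned columns, with a longest identical run of 116 bases. A coding exon of 168 bases has the same length in all 4 genes. It was picked because it held the most differences within each pair among the coding exons of equal length compared. It therefore does not stand for the whole coding sequence. This exon is printed 5′ to 3′ on the gene's strand with the bases that differ within the pair in capitals. It is exon 2 of AKR1B10 (chr7:134530643-134530810), exon 4 of AKR1B15 (chr7:134568158-134568325), and exon 2 of AKR1C1 (chr10:4965914-4966081) and of AKR1C2 (chr10:5001514-5001681, minus strand).
AKR1B10: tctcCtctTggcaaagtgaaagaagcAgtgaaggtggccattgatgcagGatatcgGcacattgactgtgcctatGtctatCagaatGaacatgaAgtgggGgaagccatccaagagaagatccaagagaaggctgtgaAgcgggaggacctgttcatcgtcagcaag
AKR1B15: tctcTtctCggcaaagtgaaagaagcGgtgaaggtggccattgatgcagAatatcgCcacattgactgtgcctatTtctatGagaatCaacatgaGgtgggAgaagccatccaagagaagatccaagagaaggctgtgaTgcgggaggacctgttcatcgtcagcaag
AKR1C1: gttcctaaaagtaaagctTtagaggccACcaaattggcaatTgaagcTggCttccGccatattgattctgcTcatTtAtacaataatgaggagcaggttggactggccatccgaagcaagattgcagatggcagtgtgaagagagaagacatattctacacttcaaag
AKR1C2: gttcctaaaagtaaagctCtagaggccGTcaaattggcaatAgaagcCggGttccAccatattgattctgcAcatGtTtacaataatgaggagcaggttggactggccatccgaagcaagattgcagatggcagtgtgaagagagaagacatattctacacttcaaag
The AKR1B pair differed at 11 of these 168 bases (6.5%) and the AKR1C pair at 10 (6.0%). Of all stretches of 50 bases in the AKR1C2 transcript, 50.8% also occurred in AKR1C1, and 28.3% of those in the longer AKR1C1 transcript occurred in AKR1C2. The longest transcript that GENCODE marks as principal stood for each gene. It had 6705 bases for AKR1C1 and 3756 for AKR1C2, with 969 coding bases in each. Shares for shorter transcripts were not computed. Of the stretches in AKR1B15, 11.3% occurred in AKR1B10. With stretches of 100 bases these shares were 31.1%, 17.2% and 1.1%, and the sources used here name no read length. Reads from such stretches cannot be assigned to either gene by sequence, and the sources used here do not say how the authors' counting split them. The value of each member is therefore uncertain with respect to its neighbour, and for the AKR1C pair the response of the summed CPM is given beside the comparisons between genotypes.

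Promoter sequence from RefSeq (GRCh38.p14) matched AKR1C1 and AKR1C2. The 250 bases before the starts of these genes aligned over 245 columns with no difference. The part upstream of the exons annotated by GENCODE is printed: 88 bases before AKR1C1 (chr10:4963165-4963252) and 84 before AKR1C2 (chr10:5004024-5004107, minus strand), identical over the 84 shared columns. The part of this sequence in the responses below was not tested.
AKR1C1 promoter: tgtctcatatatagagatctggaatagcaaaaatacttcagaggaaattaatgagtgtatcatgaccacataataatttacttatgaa
AKR1C2 promoter: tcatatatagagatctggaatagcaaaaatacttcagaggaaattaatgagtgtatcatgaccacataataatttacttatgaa
In windows from 250 bases before the start to 50 after it, searched on both strands, AKR1C1 and AKR1C2 both held AGTTCA, a variant of the core bound by nuclear receptors, 141 and 145 bases before the start. Both also held CCAAT, 77 and 81 bases before the start. These positions count from the RefSeq starts, and all of these matches lie inside the first exon that GENCODE annotates and outside the stretches printed above. Relatives held the same letters: AGTTCA in the window of AKR1C4 (154 bases before the start) and in both windows of AKR1C3 (137 and 150 bases), and CCAAT in both AKR1C3 windows (73 and 86 bases). Among 35116 promoter windows of the same length, 10.4% held AGTTCA and 34.6% held CCAAT. The antioxidant response element core TGACNNNGC (13.3% of windows), the AP-1 motif TGAGTCA (4.9%) and the nuclear receptor core AGGTCA (13.8%) had no match in these 2 windows. A match describes letters only.

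The libraries held between 49258123 and 66453415 reads, and duplicates differed by more than sampling noise. Genotype separated the libraries along the leading principal component, which held 84.0% of the variance. The targeted gene NR1I3 differed by -0.12 (log2, KO minus WT under DMSO, adjusted p = 0.273), and a transcript level does not check an edit that leaves the transcript in place. CYP2B6, the classical CAR target, rose by 3.60 with PB and 3.55 with CITCO in WT cells and by 4.50 and 0.78 in KO cells on the log2 scale. Hepatocyte-like markers (7 of 8 in the table, none at 0) summed to 132633 to 152499 CPM in WT and 53522 to 64507 CPM in KO libraries. Their sum without CYP3A4, itself a drug target, was 131826 to 148470 in WT and 50976 to 54392 CPM in KO libraries. Biliary-like markers (4 of 8, none at 0) summed to 377 to 467 CPM in WT and 104 to 121 CPM in KO, and mesenchymal markers (5 of 8, none at 0) to 96.9 to 110 CPM in WT and 157 to 173 CPM in KO. Single genes carried these sums: under DMSO ALB held 127568 ± 3342 CPM in WT and 43520 ± 1003 CPM in KO, and KRT19 held 407 ± 35.0 and 83.9 ± 0.0428 CPM (SD, n = 2). In such bulk samples, fewer cells of a type and less RNA per cell cannot be told apart.

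AKR1B10 was abundant in WT cells and responded to both drugs. Levels below are the deposited CPM, read counts relative to a library size that carries the authors' normalization factor. AKR1B10 stood at 563 and 545 CPM in the WT DMSO libraries, 1167 and 1127 CPM with PB and 1132 and 1139 CPM with CITCO. Both drugs thus left their libraries well above DMSO and overlapping with each other. In KO cells AKR1B10 stood at 185 and 183 CPM with DMSO, 471 and 471 CPM with PB and 225 and 231 CPM with CITCO. No KO library reached the lowest WT library, and within KO the PB libraries were the high ones while the CITCO libraries stood slightly above DMSO.

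AKR1C1 and AKR1C2 showed a like pattern at their own levels, except that AKR1C2 in PB-treated KO cells reached the level of WT cells given DMSO. AKR1C1 measured 1348 and 1338 CPM in WT DMSO, 1991 and 1948 CPM in WT PB and 1854 and 1831 CPM in WT CITCO libraries. In KO cells it measured 681 and 685 CPM with DMSO, 1078 and 1095 CPM with PB and 771 and 767 CPM with CITCO. The 6 groups of AKR1C1 did not overlap anywhere, and every KO library lay below every WT library. With 2 libraries in each group such separation, in any member, is not a test. Its share over all loci was not computed. AKR1C2 measured 874 and 844 CPM in WT DMSO, 1611 and 1573 CPM in WT PB and 1575 and 1513 CPM in WT CITCO libraries. Its KO libraries held 374 and 383 CPM with DMSO, 875 and 880 CPM with PB and 484 and 479 CPM with CITCO. The KO PB libraries of AKR1C2 lay just above the WT DMSO libraries, and the WT PB and WT CITCO libraries overlapped.

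AKR1B15 was scarce. Read numbers in KO libraries are estimates, from a value of 1 read that was itself estimated here. The AKR1B15 locus held 74 and 108 reads in WT DMSO, 247 and 405 in WT PB and 321 and 443 in WT CITCO libraries, and 28 to 106 reads in the KO libraries, against 11032 to 118828 reads for the other members. Levels were 1.65 and 2.26 CPM in WT DMSO, 4.14 and 7.23 CPM in WT PB, and 5.80 and 7.33 CPM in WT CITCO. In KO cells they were 0.468 and 0.554 CPM with DMSO, 1.53 and 0.806 CPM with PB and 0.785 and 0.605 CPM with CITCO. The drug-treated WT libraries lay above DMSO, and the KO libraries all lay below the WT libraries. Per kilobase of annotated transcript, AKR1B10 stood at 349 ± 7.94 and AKR1B15 at 1.21 ± 0.268 CPM per kb in WT DMSO (SD, n = 2), the latter close to AKR1B1, the aldose reductase of the polyol pathway, at 1.09 ± 0.0933. AKR1B15 was 0.248 to 0.578% of AKR1B10 in the group means, and whether a part of its reads came from AKR1B10 was not tested.

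**Figure D1:**
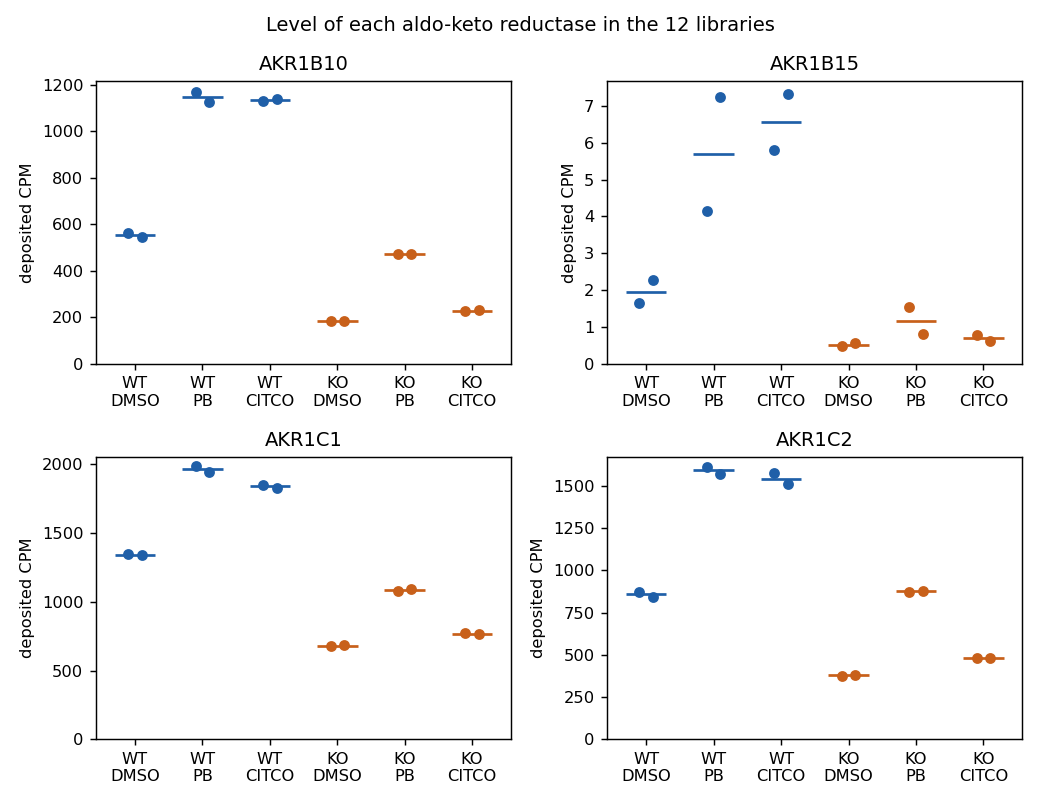
Deposited CPM (vertical axis, linear, from 0) of each aldo-keto reductase in the 12 libraries, grouped by genotype and treatment. Points are libraries and lines are group means, WT in blue and KO in orange. AKR1B10 reaches 1127 to 1167 CPM in WT PB and 471 CPM in KO PB, and AKR1B15 stays at or below 7.33 CPM.

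The response to phenobarbital in WT cells asks which reductases the drug raises when CAR is present. All 4 members rose, where 2.66% of tested loci rose, 3.76% fell and 6.42% changed in either direction. The members and gene lists were chosen with earlier results of these data known. Here and below, shares over all loci thus give the setting and do not test the members or lists as sets. AKR1B10 rose from 554 ± 12.6 to 1147 ± 28.4 CPM (SD, n = 2), 2.07-fold. Its log2 change was 1.05 (SE 0.034, limma adjusted p = 3.65e-13), and 20 loci had a larger called rise. AKR1C2 rose 1.85-fold, from 859 ± 21.3 to 1592 ± 26.6 CPM, with a log2 change of 0.89 (limma adjusted p = 1.63e-12). AKR1C1 rose 1.47-fold, from 1343 ± 6.54 to 1970 ± 30.8 CPM, with a log2 change of 0.55 (limma adjusted p = 3.54e-10). AKR1B15 rose from 1.96 ± 0.434 to 5.69 ± 2.19 CPM, with a log2 change of 1.30 and an SE of 0.23 (limma adjusted p = 0.0016). The median over all loci was 0.00, and the 4 genes together went from 0.252% to 0.425% of the deposited signal.

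CITCO gave rises of like size in WT cells. All 4 members rose again, where 1.18% of loci rose, 1.02% fell and 2.20% changed in either direction (348 loci, and 992 without WT DMSO replicate 2). AKR1B10 reached 1135 ± 4.85 CPM, 2.05-fold above DMSO (log2 change 1.03, limma adjusted p = 6.13e-13), and 9 loci rose more. AKR1C2 reached 1544 ± 43.9 CPM, a 1.80-fold rise (0.85, limma adjusted p = 7.17e-12), and AKR1C1 reached 1843 ± 16.0 CPM, a 1.37-fold rise (0.46, limma adjusted p = 1.46e-08). AKR1B15 reached 6.56 ± 1.08 CPM, with a log2 change of 1.53 (limma adjusted p = 0.000953), but this call was lost with a constant prior variance (adjusted p = 0.0519). The PB and CITCO comparisons share their DMSO libraries.

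Set directly against each other in WT cells, PB and CITCO passed the test in no member, while 2.65% of loci were higher with PB, 3.63% lower and 6.28% different in either direction. The log2 difference, PB minus CITCO, was 0.01 for AKR1B10 (95% interval -0.06 to 0.08, adjusted p = 0.871) and 0.04 for AKR1C2 (-0.03 to 0.11, adjusted p = 0.505). For AKR1C1 it was 0.10 (0.03 to 0.16, adjusted p = 0.0614), and its PB libraries lay above its CITCO libraries without overlap. AKR1B15 gave -0.23 with a wide interval of -0.72 to 0.26 (adjusted p = 0.65), and 0.14 without WT PB replicate 1 and -0.60 without WT PB replicate 2. CYP3A4, which encodes the main drug-oxidising P450 of liver, differed by 2.27 in the same comparison. The doses are not given, so these values compare treatments as applied.

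In KO cells phenobarbital still raised 3 of the 4 members, where 3.87% of loci rose, 3.09% fell and 6.96% changed in either direction. AKR1B10 rose 2.56-fold, from 184 ± 0.819 to 471 ± 0.0786 CPM (log2 change 1.35, SE 0.034, limma adjusted p = 3.51e-15). AKR1C2 rose 2.32-fold, from 379 ± 6.56 to 877 ± 3.96 CPM (1.21, limma adjusted p = 1.29e-14). AKR1C1 rose 1.59-fold, from 683 ± 3.17 to 1087 ± 11.9 CPM (0.67, limma adjusted p = 1.52e-11). AKR1B15 did not pass the test at 0.69 (95% interval 0.20 to 1.18, adjusted p = 0.0914), with 0.511 ± 0.0605 CPM under DMSO and 1.17 ± 0.514 CPM under PB. It passed with a pseudocount of 0.1 CPM (1.00, adjusted p = 0.0467) and without replicate 2 of the KO PB group (1.01, adjusted p = 0.047).

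CITCO in KO cells moved the same 3 genes by small amounts, in a comparison where 0.386% of loci rose, 0.424% fell and 0.811% changed in either direction. AKR1C2 rose 1.27-fold to 481 ± 3.58 CPM (log2 change 0.35, limma adjusted p = 1.24e-05), and AKR1B10 rose 1.24-fold to 228 ± 4.36 CPM (0.31, limma adjusted p = 5.76e-05). AKR1C1 rose 1.13-fold to 769 ± 2.64 CPM (0.17, limma adjusted p = 0.00534). The level of AKR1B15 was 0.695 ± 0.127 CPM, a log2 change of 0.24 (95% interval -0.25 to 0.73, adjusted p = 0.791). With a constant prior variance none of the 3 rises passed (adjusted p = 0.0565 for AKR1C2, 0.0831 for AKR1B10 and 0.247 for AKR1C1). The AKR1C1 call was also lost without KO DMSO replicate 1 (adjusted p = 0.061), KO CITCO replicate 1 (0.1) or KO CITCO replicate 2 (0.093).

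**Figure D2:**
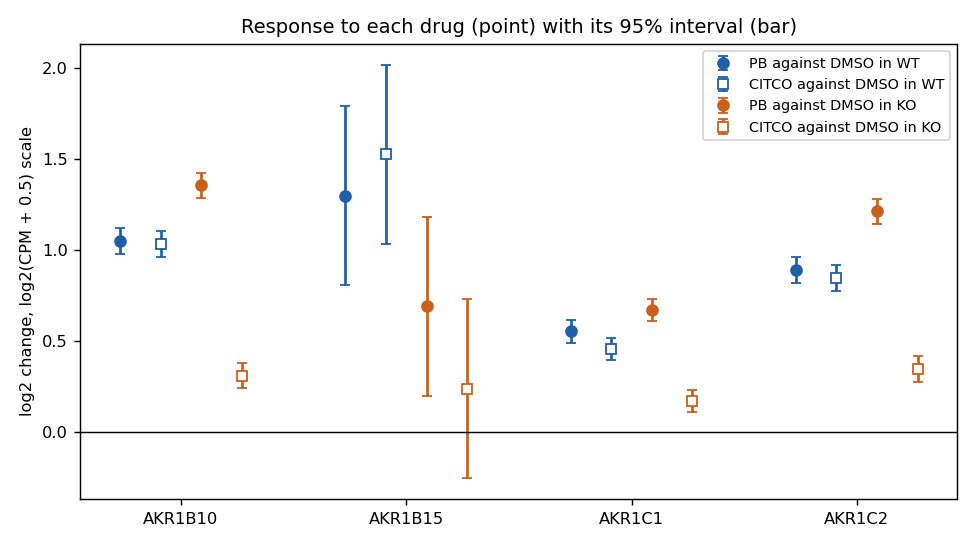
Log2 change against DMSO on the log2(CPM + 0.5) scale (vertical axis) for each gene, genotype and drug. Points are estimates from limma over 12 libraries and bars are 95% intervals. In WT cells the PB and CITCO points of AKR1B10 lie at 1.05 and 1.03, while in KO cells they lie at 1.35 and 0.31, and the intervals of AKR1B15 are the widest.

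PB and CITCO therefore separated in KO cells, where the test called 3 of 4 members higher with PB, against 3.57% of loci higher, 1.91% lower and 5.48% in either direction. The log2 difference was 1.04 for AKR1B10 (adjusted p = 1.94e-13), 0.87 for AKR1C2 (2.61e-12) and 0.50 for AKR1C1 (1.67e-09). AKR1B15 gave 0.45 (95% interval -0.04 to 0.94, adjusted p = 0.349), and 0.13 without KO PB replicate 1 and 0.77 without KO PB replicate 2. Summing AKR1C1 and AKR1C2 before the log gave 0.65 for the pair (adjusted p = 2.87e-11).

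Whether the drug responses differed between genotypes was tested directly, as the response in KO minus the response in WT cells. For CITCO, 3 of 4 members had a smaller response in KO cells, against 0.228% of loci lower, 0.108% higher and 0.336% in either direction (53 loci, and 491 without WT DMSO replicate 2). The difference was -0.72 for AKR1B10 (SE 0.048, limma adjusted p = 5.07e-08), and 14 loci had a larger called reduction. It was -0.50 for AKR1C2 (limma adjusted p = 9.61e-06) and -0.29 for AKR1C1 (limma adjusted p = 0.00181). For AKR1B15 the difference of -1.29 did not pass (95% interval -1.98 to -0.59, adjusted p = 0.129), but it did when only the 8 libraries concerned were fitted (adjusted p = 0.0415) and without WT DMSO replicate 2 (-1.47, adjusted p = 0.0301). With a constant prior variance the AKR1C2 and AKR1C1 calls were lost (adjusted p = 0.0741 and 0.224), and that of AKR1B10 held (adjusted p = 0.00852). The summed AKR1C pair gave -0.39 (adjusted p = 7.93e-05), from responses to CITCO of 0.62 in WT and 0.24 in KO cells.

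For phenobarbital the difference went the other way in 2 of 4 members, against 0.798% of loci higher, 0.209% lower and 1.01% in either direction. The PB response was larger in KO cells by 0.32 for AKR1C2 (SE 0.047, limma adjusted p = 0.00126) and by 0.31 for AKR1B10 (SE 0.048, limma adjusted p = 0.00215). AKR1C1 gave 0.12 (95% interval 0.03 to 0.20, adjusted p = 0.312) and AKR1B15 gave -0.61 (-1.30 to 0.09, adjusted p = 0.616). That value ran from -0.24 without WT PB replicate 2 to -0.98 without WT PB replicate 1, and was -0.93 and -0.29 without KO PB replicates 1 and 2. With a constant prior variance neither AKR1C2 nor AKR1B10 passed (adjusted p = 0.163 for both). Summing AKR1C1 and AKR1C2 before the log gave 0.19 for the pair (adjusted p = 0.0278), from responses to PB of 0.69 in WT and 0.89 in KO cells. On the linear scale the order was reversed, since KO cells started lower: PB added 592 CPM of AKR1B10 in WT and 287 CPM in KO cells, and 733 and 499 CPM of AKR1C2. CITCO added 581 CPM of AKR1B10 in WT and 44.2 CPM in KO cells, 685 and 102 CPM of AKR1C2, and 500 and 86.0 CPM of AKR1C1.

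Beside these differences, the hepatocyte-like sum in KO cells was 53681 to 55472 CPM with DMSO and 63241 to 64507 CPM with PB. Without CYP3A4 it was 52580 to 54392 CPM with DMSO, 52827 to 53578 CPM with PB and 50976 to 51611 CPM with CITCO. In WT cells the same sum was 144146 to 148465 CPM with DMSO, 142053 to 148470 CPM with PB and 131826 to 131866 CPM with CITCO. The part of culture composition in the responses was not tested.

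All 4 members were lower in KO than in WT cells under every treatment, but so was a large share of the transcriptome. Under DMSO 29.4% of loci were lower, 28.3% higher and 57.7% different in either direction. Under PB 28.9% were lower, 29.4% higher and 58.3% different, and under CITCO 29.8%, 29.3% and 59.0%. Under DMSO AKR1B10 was 3.01-fold higher in WT (log2 KO minus WT -1.59, limma adjusted p = 4.6e-17), AKR1C2 2.27-fold (-1.18, 2.14e-15) and AKR1C1 1.97-fold (-0.98, 5.52e-15). AKR1B15 was 3.83-fold higher in WT (-1.27, limma adjusted p = 0.000142). The difference was smaller under PB for AKR1B10 (-1.28, limma adjusted p = 8.64e-16) and AKR1C2 (-0.86, 1.56e-13), and stood at -0.86 for AKR1C1 (2.72e-14) and -1.88 for AKR1B15 (1.63e-06). In value the gap was wider under CITCO than under DMSO or PB in each of the 4 genes, at -2.31 for AKR1B10 (4.98-fold, limma adjusted p = 2.97e-19), -1.68 for AKR1C2 (3.21-fold, 1.55e-17), -1.26 for AKR1C1 (2.40-fold, 1.43e-16) and -2.56 for AKR1B15 (9.45-fold, 3.18e-08). Scaling each library to its own total moved the median over loci by 0.25 under DMSO and by 0.24 under PB and under CITCO, and all 4 members stayed called lower, with AKR1B10 at -1.32, -1.03 and -2.06. Marker genes of each list did not all move one way in KO cells. Under DMSO, 5 of 7 hepatocyte-like markers were called lower, CYP3A4 was higher (2.20) and TTR measured 0.03 (adjusted p = 0.519). Of the 4 biliary-like markers KRT19 (-2.27) and SOX9 (-0.92) were lower, and SPP1 (1.27) and KRT7 (0.73) were higher. Of the 5 mesenchymal markers TAGLN (2.97) and ACTA2 (0.78) were higher and COL3A1 (-0.41) was lower. The part of these markers in the genotype difference was not tested.

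Within the AKR1C pair the proportions shifted with treatment. The ratio of AKR1C2 to AKR1C1 CPM, which is not corrected for transcript length and so describes a shift and not relative abundance, was 0.639 ± 0.0127 in WT DMSO, 0.808 ± 0.000856 in WT PB and 0.838 ± 0.0166 in WT CITCO (SD, n = 2). In KO cells it was 0.555 ± 0.00703 with DMSO, 0.807 ± 0.00522 with PB and 0.626 ± 0.0025 with CITCO. The treated libraries lay above the DMSO libraries of their genotype without overlap, and the PB ratio was close to 0.81 in both genotypes although both genes were lower in KO cells. AKR1B10 also gained on AKR1C1, from a ratio of 0.413 to 0.582 with PB and 0.616 with CITCO in WT, and from 0.269 to 0.433 and 0.297 in KO cells. The ratios were given no test, and the sharing of reads within the AKR1C pair described above bears on the ratio of AKR1C2 to AKR1C1.

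**Figure D3:**
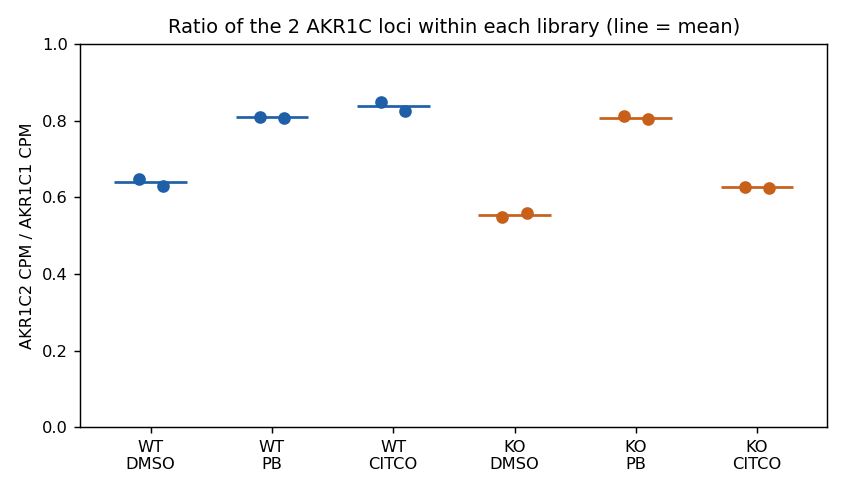
Ratio of AKR1C2 to AKR1C1 CPM (vertical axis, from 0) within each of the 12 libraries, by group. Points are libraries and lines are group means. WT PB, WT CITCO and KO PB libraries lie near 0.81 to 0.84, and KO CITCO libraries lie near 0.63, between KO DMSO and KO PB.

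Over all tested loci PB raised 2.66% in WT and 3.87% in KO cells, and CITCO raised 1.18% and 0.386%. AKR1D1 and AKR1C4 were the other aldo-keto reductases called in the drug comparisons, both with PB. Of 13 listed, 10 were tested: PB raised 2 in each genotype and lowered none, and CITCO changed none in either genotype, though 2 were higher in WT cells without WT DMSO replicate 2 (medians 0.07 and 0.10 in WT and -0.05 and 0.03 in KO cells, for PB and CITCO, against medians of all loci between -0.01 and 0.00). AKR1D1, the steroid reductase of bile acid synthesis, rose by 1.17 with PB in WT and by 2.05 in KO cells (limma PB response difference 0.87, adjusted p = 0.00037), and measured 0.03 and 0.21 with CITCO. AKR1C4, a liver-specific relative in the same cluster whose coding sequence was 88.5% identical to that of AKR1C1, rose with PB by 0.47 in WT cells (limma adjusted p = 0.00154) and by 0.49 in KO cells (0.000782). With CITCO AKR1C4 measured 0.18 and 0.05 (adjusted p = 0.306 in WT cells). AKR1B1 passed in no drug comparison (0.12, -0.24, 0.45 and 0.39). Between genotypes, 6 of the 10 were lower and 2 higher in KO cells under each of DMSO, PB and CITCO (medians -0.48, -0.54 and -0.56). Over all loci 28.9 to 29.8% were lower and 28.3 to 29.4% higher in these comparisons. The expression of AKR1C3 was not analysed here. The AKR1C pseudogene AKR1C6P rose in KO cells with PB (0.59, adjusted p = 0.00386), a call lost without KO DMSO replicate 1 (0.43, adjusted p = 0.0883) or KO PB replicate 1 (0.50, adjusted p = 0.0858).

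Among the genes flanking the clusters, CALD1 and KLF6 were called lower with PB, where 3.76% of all loci fell in WT and 3.09% in KO cells. Around the AKR1B cluster, EXOC4, SLC35B4, BPGM, AGBL3 and CALD1 were tested, and the call was CALD1, an actin-binding protein, lower in KO cells with PB (-0.23, adjusted p = 0.000596). CALD1 was also called lower in WT cells with PB without WT DMSO replicate 2 (-0.16, adjusted p = 0.0351) or WT PB replicate 1 (-0.16, adjusted p = 0.0422). Around the AKR1C cluster, PITRM1, KLF6, TUBAL3 and NET1 were tested, and KLF6, a zinc finger transcription factor, was lower with PB by -0.34 in WT (limma adjusted p = 0.000946) and -0.49 in KO cells (1.59e-05).

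Over all tested loci, 2.66% rose with PB and 1.18% with CITCO in WT cells, and 3.87% and 0.386% in KO cells. PB lowered 3.09% of loci in KO cells. Among enzymes of related chemistry, the short-chain carbonyl reductases had 15 of 17 genes tested. PB raised 4 of them in WT cells, DCXR (0.64), CBR1 (0.47), RDH16 (0.41) and HSD11B1 (0.27), and 4 in KO cells, RDH16 (0.57), DHRS3 (0.43), CBR1 (0.25) and HSD11B1 (0.25). In KO cells the CBR1 and HSD11B1 calls were lost when any single library of the KO DMSO or KO PB groups was left out (adjusted p = 0.116 to 0.241 and 0.0551 to 0.0844). CITCO raised CBR1, a carbonyl reductase of quinones and prostaglandins, in WT cells (0.43, adjusted p = 0.00153, and 0.0511 without WT CITCO replicate 1) and none in KO cells, and none of the 15 fell in these 4 comparisons. Of 12 tested aldehyde dehydrogenases out of 15, which oxidise aldehydes rather than reduce them, PB raised 7 in WT and 5 in KO cells, CITCO raised 4 and 3, and none fell. ALDH3A1, a dehydrogenase induced through the aryl hydrocarbon receptor, rose by 0.95 in WT and 1.16 in KO cells with CITCO and by 0.39 and 0.34 with PB. Set directly against CITCO, PB left ALDH3A1 lower, with a log2 difference of -0.57 in WT (adjusted p = 8.28e-06) and -0.82 in KO cells (adjusted p = 1.92e-08). ALDH1A1, which oxidises retinaldehyde, rose by 0.36 in WT and 0.89 in KO cells with PB (difference 0.52, adjusted p = 2.65e-06). Of 14 tested steroid metabolism genes out of 15, PB raised 3 in WT cells and raised 4 and lowered 1 in KO cells, where the fall was that of HSD3B1 (-1.20, adjusted p = 2.06e-07), and CITCO raised 1 in each genotype, the sulfotransferase SULT2A1 in WT (0.32) and HSD17B2 in KO cells (0.52, adjusted p = 0.00988). The HSD17B2 call was lost without KO DMSO replicate 1, KO DMSO replicate 2 or KO CITCO replicate 1 (adjusted p = 0.092, 0.0939 and 0.212).

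Of 22 listed NRF2 targets outside the members, 20 were tested. PB raised 13 in WT cells and lowered 1, the efflux pump ABCC3 (-0.15), and raised 13 in KO cells. Over all loci PB raised 2.66% and lowered 3.76% in WT cells, and raised 3.87% in KO cells. The ABCC3 call was lost without WT DMSO replicate 1, WT DMSO replicate 2 or WT PB replicate 1 (adjusted p = 0.0756, 0.122 and 0.185). CITCO raised 15 in WT and 2 in KO cells, against 1.18% and 0.386% of all loci, with none of the 20 lower. The WT count was 8 without WT CITCO replicate 1 and 9 without replicate 2, and the KO count was 0 without either KO CITCO replicate and 1 without either KO DMSO replicate. The medians were 0.30 and 0.28 in WT and 0.32 and 0.08 in KO cells, for PB and CITCO. GPX2, a glutathione peroxidase, rose by 1.87 with PB and 1.68 with CITCO in WT and by 1.27 with PB in KO cells, and measured 0.27 with CITCO in KO cells (adjusted p = 0.0574). TRIM16L measured 0.71, 0.65, 0.83 and 0.13 in the same order, the last not called (adjusted p = 0.354). PIR, a redox-sensitive nuclear protein, rose by 0.73, 0.65, 0.82 and 0.32, and SLC7A11, the cystine transporter, by 0.81, 0.47, 0.83 and 0.56. The CITCO calls of SLC7A11 in WT cells and of SLC7A11 and PIR in KO cells were among those lost with left-out libraries. NQO1, a widely used NRF2 target, passed in none of the 4. Its level was 0.318 ± 0.292 CPM in WT DMSO and 5.17 ± 0.522 CPM in KO DMSO (SD, n = 2). A WT level that low leaves its response in WT cells hard to judge. The CITCO response was smaller in KO cells in 4 of the 20, GPX2 (-1.41), SRXN1 (-0.52), TRIM16L (-0.52) and UGDH (-0.27, lost without each of the 8 libraries but WT DMSO replicate 2), and the PB response in 1, GPX2 (-0.60). The count for CITCO was 7 without WT DMSO replicate 2 and 1 with a constant prior variance. With a constant prior variance the CITCO counts of rises were 7 in WT and 0 in KO cells. Over all loci the response difference was called lower in 0.228% for CITCO and in 0.209% for PB.

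Called changes of NRF2 regulators were small in size. NFE2L2, which encodes NRF2, rose in all 4 drug comparisons, by 0.28 with PB and 0.27 with CITCO in WT and by 0.23 and 0.25 in KO cells (adjusted p = 0.002, 0.00767, 0.00917 and 0.0302), and its response differences between genotypes were -0.05 for PB and -0.02 for CITCO, neither called. SQSTM1, which competes for the NRF2 inhibitor KEAP1, rose by 0.24 and 0.20 in WT cells. KEAP1 itself passed in none of the 4, but in WT cells it was called higher with both drugs without WT DMSO replicate 2 (0.36 for each, adjusted p = 0.00167 and 0.00313). Of 8 listed regulators 6 were tested. PB raised 2 in WT and 1 in KO cells, against 2.66% and 3.87% of all loci. CITCO raised 2 and 1, against 1.18% and 0.386%, and neither drug lowered any. The NFE2L2 calls rested on few libraries: that for CITCO in KO cells was lost when any single library of its groups was left out (adjusted p = 0.101 to 0.322), that for PB in KO cells without KO DMSO replicate 1, KO PB replicate 1 or KO PB replicate 2 (0.0887, 0.101 and 0.0706), and that for CITCO in WT cells without WT CITCO replicate 1 or 2 (0.0774 and 0.101). The SQSTM1 call for PB was lost without WT DMSO replicate 1 (adjusted p = 0.082) or WT PB replicate 2 (0.0889), and that for CITCO without WT DMSO replicate 1 (0.378) or WT CITCO replicate 1 or 2 (0.167 and 0.307).

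**Figure D4:**
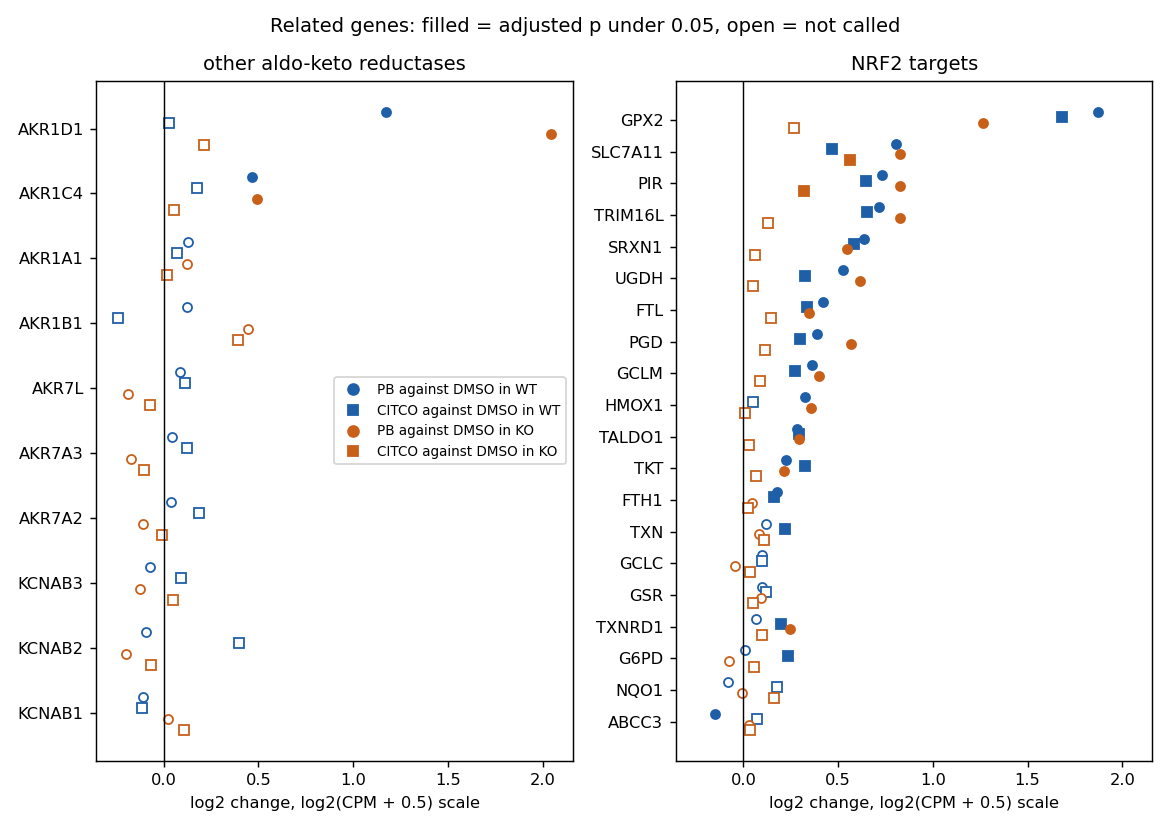
Log2 change against DMSO on the log2(CPM + 0.5) scale (horizontal axis) of the other tested aldo-keto reductases and of the NRF2 targets. Circles are PB and squares CITCO, WT in blue and KO in orange, filled where adjusted p was under 0.05. AKR1D1 and AKR1C4 are the filled genes on the left, and on the right the KO CITCO squares are open except for SLC7A11 and PIR.

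CAR and PXR targets had 13 of 14 genes tested. PB raised 13 in WT and 13 in KO cells, and CITCO 10 and 8, with none lower. Over all loci PB raised 2.66% and 3.87%, and CITCO 1.18% and 0.386%. The PB response was larger in KO cells in 8 of the 13, as it was for AKR1B10 and AKR1C2, with CYP2C8 (1.47), CYP3A7 (1.44) and CYP2B6 (0.90) leading, and smaller in CYP3A4 (-0.76). The CITCO response was smaller in KO cells in 7, including CYP2B6 (-2.78), CYP2A6 (-1.16) and CYP3A4 (-0.55). Over all loci the PB response difference was called higher in 0.798% and lower in 0.209%, and that of CITCO lower in 0.228%.

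The loci most like each member were ranked by Pearson's r of log2(CPM + 0.5) over the 12 libraries, after subtracting the mean of each genotype, among 11609 loci with a mean of at least 5 CPM. These libraries share treatments, so r describes the pattern over the treatments within a genotype and carries no p. For AKR1B10 the closest were CYP2B6 (r = 0.998), TRIM16L (0.993), CDRT1 (0.985), CYP2A6 (0.984) and PGD (0.984), an NADPH-producing enzyme of the pentose phosphate pathway. For AKR1C2 they were CYP2B6 (0.994), TRIM16L (0.987), PGD (0.986), EPHX1 (0.984), the microsomal epoxide hydrolase, and PIR (0.980). AKR1C1 was closest to CYP2B6 (0.992), EPHX1 (0.991), PGD (0.991), UGT2B4 (0.989), a glucuronidation enzyme, and TRIM16L (0.988). AKR1B15 had other neighbours at lower r, CEACAM20 (0.941), TKT (0.936), ZNF428 (0.933), NCLN (0.920) and CBR1 (0.920). Without the centring, r with AKR1B10 was 0.913 for CYP2B6 and 0.385 for TRIM16L, so that likeness there held within genotypes more than across them. Among the pairs named here, r without the centring ran from 0.996 (AKR1C1 with EPHX1) to -0.799 (AKR1B15 with CEACAM20). Among the members, r was 0.998 for AKR1B10 with AKR1C2, 0.996 for AKR1C1 with AKR1C2 and 0.994 for AKR1B10 with AKR1C1, and 0.779 to 0.801 for AKR1B15 with the other members.

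**Figure D5:**
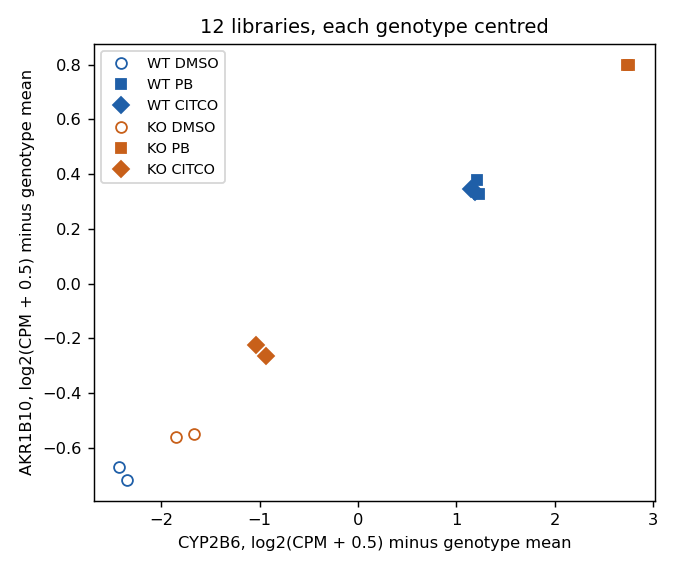
AKR1B10 (vertical axis) against CYP2B6 (horizontal axis), both log2(CPM + 0.5) minus the mean of the genotype, in the 12 libraries. Each point is a library, with colour for genotype and shape for treatment. KO PB libraries lie highest in both genes (0.80 and 2.73 to 2.76), and KO CITCO libraries lie near the KO DMSO libraries.

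The authors' deposited tables of comparisons hold AKR1B10, AKR1C1 and AKR1C2. In the authors' deposited table for CITCO in KO cells, AKR1C1 had a log2 change of 0.17 with an FDR of 0.0192, AKR1B10 0.31 with 2.2e-06 and AKR1C2 0.35 with 9.01e-08. The authors' deposited tables named for KO against WT under PB and CITCO give AKR1B10 0.31 (FDR 0.00407) and -0.72 (FDR 5.73e-19). Those values are near the differences of the responses computed here, 0.31 and -0.72, and far from the named comparisons, -1.28 and -2.31. AKR1C2 in the same authors' deposited tables had 0.32 (FDR 0.00306) and -0.50 (FDR 7.23e-08).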

How the data were processed

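RNA from 12 HepaRG samples was sequenced by the authors. Per the submitters' processing notes, edgeR 2.12, Cuffdiff 2.1.1, Cufflinks 2.1.1, TopHat2 2.0.10 and Bowtie 1.0.0, and the builds GRCh38 and GRCh37, were used, with no role stated. The deposited values are a normalized signal in CPM, since library totals run from 0.9 to 1.11 times 1e6: reads per library size carrying a normalization factor. A locus may hold more than the gene named. Plain CPM had been assumed in planning, and the same test was used. Low values were whole multiples of 1 read, so whole reads were recovered (100% of values within 0.001 reads). Count models (edgeR 4.0.16, DESeq2 1.42.0) were run as alternatives on the 6 WT libraries, whose reads passed a general check of whole numbers. Reads of KO libraries did not pass it and are estimates. The authors deposited also tables with log2 fold changes, p-values and a likelihood ratio score for 14161 loci, which serve here as a side-by-side value.

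limma 3.58.1 (R 4.3.3) was fitted to log2(CPM + 0.5) with a trended prior variance, 6 group means and 12 libraries, which leaves 6 residual degrees of freedom. The filter kept loci reaching 1 CPM in 2 or more libraries, and 11 comparisons were made. Calls are Benjamini-Hochberg adjusted p under 0.05 over all tested loci, and adjusted p-values are limma's. A log2 change on this scale understates that of low genes. The test was checked on simulated counts with known changes in the WT PB group, the same dispersion at all loci and no genotype difference. Such counts do not check it for the spread of these libraries. Members and lists were chosen with earlier results of these data known. Named genes were the members, listed aldo-keto reductases called or closely related, up to 4 called genes of largest change from each other list, the 5 most alike loci, flanking genes and controls. AKR1C6P, ABCC3, NQO1, KEAP1 and HSD3B1 were singled out after their values were seen. Sequences were compared with Biopython 1.88 on GENCODE 29 transcripts. Alternatives were other pseudocounts, filters, scaling, prior variance, fits, left-out libraries and summed pairs. Listed symbols with no row were not analysed here.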

Additional observations from a re-analysis of the deposited data

Results flagged for a closer look

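The test of the difference between genotypes singled out 5 responses, each the log2 response in KO minus that in WT cells by limma over all loci. The CITCO response of AKR1B10 differed by -0.72 (adjusted p = 5.07e-08), that of AKR1C2 by -0.50 (adjusted p = 9.61e-06) and that of AKR1C1 by -0.29 (adjusted p = 0.00181), each smaller in KO cells. The PB response of AKR1C2 differed by 0.32 (adjusted p = 0.00126) and that of AKR1B10 by 0.31 (adjusted p = 0.00215), both larger in KO cells.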

How the results depend on the processing

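Of 625 alternative values of the 4 members over 11 comparisons, 604 kept their side of the threshold. Changes of sign between uncalled values are included in these 604. For PB against CITCO in WT cells, uncalled throughout, values ran from -0.03 to 0.04 for AKR1B10. They ran from -0.60 to 0.14 for AKR1B15 and from -0.003 to 0.07 for AKR1C2. With a constant prior variance calls were lost for the CITCO response of AKR1B15 in WT cells (1.53, adjusted p = 0.0519), for the CITCO responses in KO cells of AKR1B10 (0.31, 0.0831), AKR1C1 (0.17, 0.247) and AKR1C2 (0.35, 0.0565), for the PB response differences of AKR1B10 (0.31, 0.163) and AKR1C2 (0.32, 0.163), and for the CITCO response differences of AKR1C1 (-0.29, 0.224) and AKR1C2 (-0.50, 0.0741). AKR1B15 passed in KO cells with PB at a pseudocount of 0.1 CPM (1.00, adjusted p = 0.0467), and its CITCO response difference passed when only the libraries compared were fitted (-1.29, 0.0415). AKR1B15 gave no value when KO libraries were fitted alone, because it failed the filter there. Leaving out single libraries gave -1.47 to -1.11 for the CITCO response difference of AKR1B15, 0.37 to 1.01 for its PB response in KO cells and 0.17 to 0.18 for the CITCO response of AKR1C1 in KO cells. Summed with AKR1B10, which holds nearly all reads of that sum, AKR1B15 gave 1.35 and 0.31 for PB and CITCO in KO cells, 1.04 for PB against CITCO in KO cells, -0.73 for the CITCO response difference and, with the sign turned, 0.30 for the PB response difference. AKR1C1 summed with AKR1C2 gave 0.19 for the PB response difference (adjusted p = 0.0278). For other changed calls the cause was not tested.

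Counts of loci called over all loci varied more than the members: 387 to 1102 for PB in WT (1014 as reported), 96 to 992 for CITCO in WT (348), 522 to 1517 for PB in KO (1099) and 20 to 254 for CITCO in KO cells (128). For the differences of responses they were 25 to 213 for PB (159) and 6 to 491 for CITCO (53), and for PB against CITCO 377 to 1219 in WT (992) and 392 to 1961 in KO cells (865). The counts of 992 and 491 arose without WT DMSO replicate 2, those of 522 and 392 without KO PB replicate 1 and that of 377 without WT CITCO replicate 1. Count models on the 6 WT libraries called 554 (edgeR) and 669 loci (DESeq2) for PB and 137 and 206 for CITCO, all 4 members among them. Scaling to library totals raised the calls of KO against WT to 10619, 10556 and 10621 (DMSO, PB and CITCO), with each member still lower. Same-numbered libraries of different groups deviated together with r over 0.1 in 4 of 15 pairs of groups (-0.08 to 0.29). Since not every pair passed and the labels name no shared culture or day, the numbers were not taken as pairing the samples. With the replicate block no call of a member changed, and the loci called were 1003 and 367 for PB and CITCO in WT and 1105 and 117 in KO cells. Of 3267 alternative values for 39 other named genes, 3137 kept their side of the threshold, 111 lost and 19 gained a call. The direction reversed in 0 where either value was called, and reversals between uncalled values were not counted. AKR1B15 held 28 to 443 reads per library.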
